A study of Homo sapiens with 6 samples.

Results

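The genes described here are 49 genes of DNA replication and of the passage from G1 into S phase, listed by name as known members of that machinery. This list and those set beside it below were chosen with earlier results of these data known. Their counts and medians therefore describe the listed genes and are no independent evidence. Each was found in the deposited transcript table by its gene ID, and its estimated counts were summed over all of its transcripts. All 49 were found among 58174 gene IDs. All 49 were also among the 14524 genes with a mean of at least 1 CPM (counts scaled to a shared library size by TMM) over the columns of the table.

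Replication origins are licensed in G1, when the origin recognition complex, CDC6 and CDT1 load the MCM2 to MCM7 ring onto DNA. E2F transcription factors, held back by the retinoblastoma protein until cyclin-dependent kinases phosphorylate it, drive transcription of the cyclin E genes and of much of the replication machinery. In S phase CDC45 and GINS turn the loaded ring into a working helicase, primase starts each strand, and the replicative polymerases copy it behind the PCNA clamp. Cancer lines in culture divide continuously, so these RNAs are usually well expressed in them.

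The RNA came from MDA-MB-231, an established human line of triple-negative breast cancer. The group NC carries the genotype label control, and the groups KO1 and KO2 carry the label ARID1A knockout, ARID1A being the subunit through which the BAF chromatin remodeller contacts DNA. No treatment, guide or clone is named for any group, so what separates KO1 from KO2 is unknown here. The labels list 6 samples, 2 per group, while the table has 1 column per group without a replicate number. Whether such a column holds a lone library or both samples together could not be determined, and no value below has an error between cultures. NC, KO1 and KO2 below mean the columns so labelled.

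The total count was 26798753 in NC, 25801499 in KO1 and 26144758 in KO2, of which genes of the mitochondrial chromosome took 12.8%, 20.5% and 16.9%. ARID1A RNA was at 77.3 CPM in NC, 45.7 CPM in KO1 and 83.9 CPM in KO2, so its RNA was not lower in KO2 than in NC. Protein levels were not analysed here. Of 5 genes that mark this line, VIM, CD44, AXL and CAV1 were at 402 CPM or more in every column, while SPARC was at 3.68 CPM or less. Of the receptors, PGR had 0 counts in all 3 columns, ESR1 had 14 counts in KO2 alone, and ERBB2 lay between 28.04 and 75.7 CPM. The summed level of 5 luminal epithelial markers was 655 CPM in NC, 1354 CPM in KO1 and 1097 CPM in KO2. Most of it came from the keratins KRT8, KRT18 and KRT19. None of the 5 was at 0, but CDH1 had only 8, 7 and 30 counts in NC, KO1 and KO2. Summed fibroblast markers lay between 32.4 and 50.5 CPM with DCN at 0 counts throughout, and endothelial markers between 3.26 and 7.82 CPM. Of the leukocyte markers, CD68 was at 44.3 CPM in NC, 17.95 CPM in KO1 and 50.8 CPM in KO2, lowest in KO1, and PTPRC, CD3E and LYZ had 15 counts or fewer in every column. Their part in the results below was not tested.

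Most of the replication genes were lower in KO1 than in NC. In KO2 27 of the 49 were within 1.5-fold of NC, beside 56.3% of all genes, so by that cut they were no nearer to NC than genes in general. By the 2-fold rule given below, 47 of the 49 were neither higher nor lower in KO2 than in NC, beside 11476 of 14524 genes. The median member was at 71.6 CPM in NC, 29.4 CPM in KO1 and 47.7 CPM in KO2. As a share of all counts the 49 genes made up 0.472% of the NC column, 0.186% of KO1 and 0.406% of KO2. KO1 was the lowest of the 3 columns for 40 of the 49 members, which holds for 37.8% of all genes with a mean of at least 1 CPM.

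With a lone column on each side, a gene was counted as different by size. Its log2 fold, after adding a prior count of 2, had to be at least 1 in size, that is 2-fold, and the exact 95% interval of the fold had to exclude equality. These intervals (Clopper-Pearson, given in brackets after each fold) cover counting error only, and sequenced fragments are not independent molecules. By this rule 36 of the 49 members were lower in KO1 than in NC and 0 were higher, against 17.4% and 15.4% of all genes. The median log2 fold of the members was -1.45, where the median of all genes was -0.01. In RNA from whole cultures, fewer cells in S phase and less of these RNAs per cell cannot be told apart. KO1 is also the column with the highest mitochondrial share, and leaving mitochondrial genes out of the scaling gave 36 lower members and a median of -1.45. That changes the scaling only, and whether whatever lies behind the share bears on these genes was not tested.

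Between KO2 and NC, 0 members were lower and 2 were higher, against 9.98% and 11% of all genes. The median log2 fold of the members was -0.32, and that of all genes was 0.00. Between KO2 and KO1, 25 members were higher and 0 lower, against 14.9% and 11.2% of all genes, with a median log2 fold of 1.004 beside 0.04. Each pair of these comparisons shares a column, so they are not independent of each other.

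The only test the table allows compares both knockout columns with NC (edgeR quasi-likelihood, 1 residual degree of freedom, the lone NC column assumed to vary like the knockout columns). It called 0 of the 49 members at an adjusted p under 0.05, where it called 27 of 18289 genes, or 0.148%. RPA1 alone had an unadjusted p under 0.05 in edgeR, a level that 7.7% of all genes reached, and its adjusted p was 0.636. DESeq2 called 0 members, with 0 at an unadjusted p under 0.05 and a lowest adjusted p of 0.659, where it called 1.72% of its genes. Differences are therefore given below as values of these columns, in the words higher and lower.

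**Figure D1:**
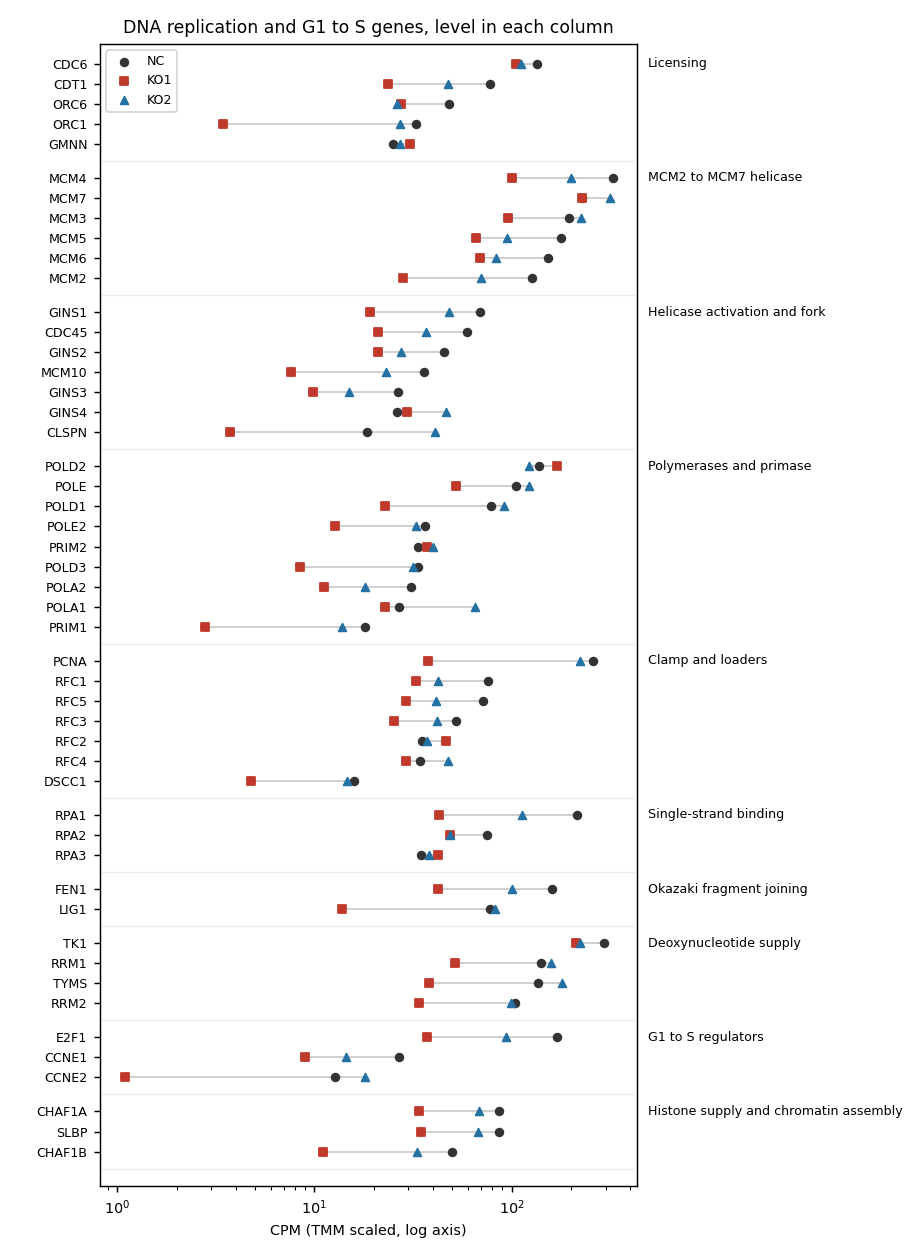
Level of each of the 49 genes (CPM after TMM scaling, log axis) in NC (black circles), KO1 (red squares) and KO2 (blue triangles), grouped by role, with 1 column per group and so no error bars. KO1 is the lowest point for 40 genes and NC the highest for 32.

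The G1 to S regulators E2F1, CCNE1 and CCNE2 were all lower in KO1. E2F1, the founding member of the E2F family (ENSG00000101412, hg38 chr20:33675683-33686404), was at 170 CPM in NC, 37.2 CPM in KO1 and 93.6 CPM in KO2. It was 4.57-fold lower in KO1 than in NC (4.25 to 4.92) and 1.82-fold lower in KO2 (1.73 to 1.91). CCNE2 (ENSG00000175305), which encodes cyclin E2, a partner of CDK2, was at 12.6 CPM in NC, 1.09 CPM in KO1 and 18.03 CPM in KO2. The KO1 value rests on 25 counts, the fewest of any member in any column. By summed counts CCNE2 had the largest difference of the 49 genes, 11.6-fold lower in KO1 than in NC (7.75 to 18.2), an interval that overlaps that of ORC1 below. By TPM, as log2(TPM + 1), PCNA (-3.12), ORC1 (-2.95) and PRIM1 (-2.77) stood past CCNE2 (-2.72), and on protein-coding transcripts POLE, PRIM1 and ORC6 did. Of those 3, POLE had 0 protein-coding counts in KO1 and PRIM1 had 4.69% of only 64 counts. In KO2 CCNE2 was 1.43-fold higher than in NC (1.24 to 1.64). CCNE1, encoding cyclin E1, was at 26.8, 8.999 and 14.5 CPM in NC, KO1 and KO2, so the 2 cyclin E genes lay on opposite sides of NC in KO2. Per transcript length, CCNE1 stood at 3.11 times the TPM of CCNE2 in NC, 15.7 times in KO1 and 1.34 times in KO2.

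Since E2F factors bind short GC-rich elements just upstream of many replication genes, the RefSeq promoter windows (GRCh38.p14, 250 bases before to 50 after a gene start) were searched for TTTCCCGC, TTTGGCGC, TTTCGCGC and TTTGCCGC on both strands. A window was held for 41 of the 49 members. Of these, 20 (48.8%) had at least 1 such element, and 20 of their 51 windows did, beside 3.31% of all 35116 windows. Below are stretches from members that were lower in KO1 (PCNA, E2F1, MCM6, MCM3) and from members that were not (GMNN, POLA1), chosen to show that the element stands in both kinds. Each is upstream sequence outside annotated exons, 100 bases long, with the element in capitals.
PCNA: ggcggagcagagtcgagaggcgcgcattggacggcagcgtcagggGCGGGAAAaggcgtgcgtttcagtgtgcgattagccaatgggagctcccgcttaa
E2F1: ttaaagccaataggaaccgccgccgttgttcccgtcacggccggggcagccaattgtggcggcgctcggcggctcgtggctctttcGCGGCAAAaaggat
MCM6: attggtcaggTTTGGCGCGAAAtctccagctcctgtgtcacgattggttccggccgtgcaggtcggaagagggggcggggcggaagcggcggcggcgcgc
MCM3: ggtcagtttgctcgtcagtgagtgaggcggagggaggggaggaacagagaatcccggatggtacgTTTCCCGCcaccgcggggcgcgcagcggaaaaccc
GMNN: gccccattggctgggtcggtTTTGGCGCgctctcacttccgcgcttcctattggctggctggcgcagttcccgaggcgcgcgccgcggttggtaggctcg
POLA1: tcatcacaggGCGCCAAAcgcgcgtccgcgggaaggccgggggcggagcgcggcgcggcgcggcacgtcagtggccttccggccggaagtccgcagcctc

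The PCNA stretch is chr20:5126627-5126726 on the minus strand, and it holds TTTCCCGC read on the opposite strand. It lies at the start of PCNA-202, while PCNA-201, which has another start, held most counts of the gene (87.3%, 79.4% and 80.2% in NC, KO1 and KO2). The E2F1 stretch is chr20:33686405-33686504 (minus strand), and the MCM6 stretch, where TTTGGCGC and TTTCGCGC on the opposite strand overlap, is chr2:135876444-135876543 (minus strand). The MCM3 stretch is chr6:52284882-52284981 (minus strand). GMNN is shown at chr6:24775313-24775412 (plus strand), at the second of its starts, and POLA1 at chrX:24693771-24693870 (plus strand). The element was present in 16 of 31 members that were lower in KO1 and in 4 of 10 that were not. The median log2 fold of KO1 against NC was -1.44 for members with it and -1.46 for members without it. The CCAAT box, bound by NF-Y, was in 25 of the 41 members and in 30 of their 51 windows, beside 34.6% of all windows. The cell cycle homology region (TTTGAA or TTCGAA), known from G2 to M promoters, was in 2 members, MCM6 and RRM1, and in 16.4% of all windows. A match is a description of the letters in a window and shows no binding.

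Among the 5 licensing genes, ORC1 and CDT1 were lower in KO1 and ORC6, CDC6 and GMNN did not pass. ORC1, the ATP-binding large subunit of the origin recognition complex (ENSG00000085840, hg38 chr1:52372829-52404459), was at 32.8 CPM in NC, 3.43 CPM in KO1 and 27.2 CPM in KO2. Its 9.55-fold lower level in KO1 (7.58 to 12.2) was the next largest by summed counts, and KO2 stood apart from KO1 by 7.92-fold (6.28 to 10.1). CDT1, which brings MCM rings to the origin, was at 77.8, 23.7 and 47.6 CPM, with KO2 between the other columns. GMNN, encoding geminin, the inhibitor of CDT1, was at 25.04, 30.4 and 27.2 CPM, so the inhibitor was not lower where its target was. CDC6, the loading ATPase, was at 135, 106 and 111 CPM. ORC6, the smallest origin recognition subunit, was at 48.0, 27.4 and 26.4 CPM, the same in both knockout columns within counting error (1.04-fold apart, 0.933 to 1.16).

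Of the 6 subunits of the MCM2 to MCM7 helicase ring, 5 were lower in KO1 and MCM7 was not. MCM2 (ENSG00000073111, hg38 chr3:127598223-127622436) was at 126 CPM in NC, 28.2 CPM in KO1 and 69.8 CPM in KO2, 4.48-fold lower in KO1 (4.12 to 4.88). MCM4 was at 326, 100 and 200 CPM, MCM5 at 177, 66.1 and 94.6 CPM, and MCM6 at 153, 68.9 and 83.3 CPM. MCM3 was at 195 CPM in NC, 95.5 CPM in KO1 and 225 CPM in KO2, which placed it just past the 2-fold line in KO1 (2.04-fold, 1.94 to 2.15) and above NC in KO2. MCM7 (ENSG00000166508, hg38 chr7:100092728-100101940) stood at 228 CPM in NC, 228 CPM in KO1 and 315 CPM in KO2. The ring holds its subunits in equal number, while their RNAs were at unequal levels. Per transcript length the highest subunit stood at 2.49 times the TPM of the lowest in NC (MCM4 over MCM2), 9.22 times in KO1 (MCM7 over MCM2) and 5.49 times in KO2 (MCM7 over MCM2). About 80% of the MCM7 counts were given to the retained-intron transcript MCM7-209 in NC (80.5%) and KO1 (80.6%), and 74.0% in KO2. The protein-coding transcripts of MCM7 held 18.1%, 17.8% and 24.6% of its counts.

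Of 7 genes of helicase activation and of the fork, 6 were lower in KO1. CDC45, which completes the active helicase, was at 59.7 CPM in NC, 21.0 CPM in KO1 and 36.7 CPM in KO2. Of the GINS subunits, GINS1 was at 69.0, 19.2 and 47.9 CPM, GINS2 at 45.6, 21.1 and 27.3 CPM and GINS3 at 26.4, 9.78 and 15.03 CPM. Those 3 subunits were lower in KO1, while GINS4 was at 26.1, 29.4 and 46.4 CPM and did not pass in any comparison. MCM10, needed for helicase start-up, was at 36.2, 7.61 and 23.1 CPM, 4.76-fold lower in KO1 (4.05 to 5.62). CLSPN (ENSG00000092853, hg38 chr1:35720218-35769967) encodes claspin, a fork protein that carries the replication checkpoint signal to CHK1. It was at 18.4 CPM in NC, 3.74 CPM in KO1 and 41.0 CPM in KO2. CLSPN is the member whose knockout columns moved to opposite sides of NC by more than 2-fold, 4.92-fold lower in KO1 (3.91 to 6.26) and 2.23-fold higher in KO2 (2.01 to 2.48).

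Of the 9 polymerase and primase genes, 6 were lower in KO1, and POLA1, PRIM2 and POLD2 were not. PRIM1, the catalytic primase subunit (ENSG00000198056, hg38 chr12:56731596-56752373), was at 18.002 CPM in NC, 2.78 CPM in KO1 and 13.7 CPM in KO2, 6.47-fold lower in KO1 (4.98 to 8.53). PRIM2, the regulatory subunit of the same enzyme, was at 33.6, 37.04 and 39.95 CPM. Per length the PRIM2 to PRIM1 ratio was 1.15 in NC, 9.63 in KO1 and 1.59 in KO2, so the subunits of primase were near equal in NC and far apart in KO1. POLA1, the catalytic subunit of polymerase alpha (ENSG00000101868, hg38 chrX:24693919-24996986), was at 27.0, 22.7 and 65.3 CPM, and 2.42-fold higher in KO2 than in NC (2.22 to 2.64). Its partner POLA2 was at 30.8, 11.2 and 18.1 CPM. In polymerase delta, the lagging-strand enzyme, the catalytic subunit POLD1 was at 79.1, 22.9 and 91.5 CPM and POLD3 at 33.4, 8.43 and 31.8 CPM. POLD2, another accessory subunit, was at 138, 169 and 123 CPM, and stood at 7.35 times the TPM of POLD3 in NC, 19.3 times in KO1 and 9.19 times in KO2. In polymerase epsilon, the leading-strand enzyme, POLE was at 106, 52.3 and 122 CPM and POLE2 at 36.5, 12.7 and 32.9 CPM. POLE was close to the line in KO1 at 2.02-fold (1.89 to 2.17).

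**Figure D2:**
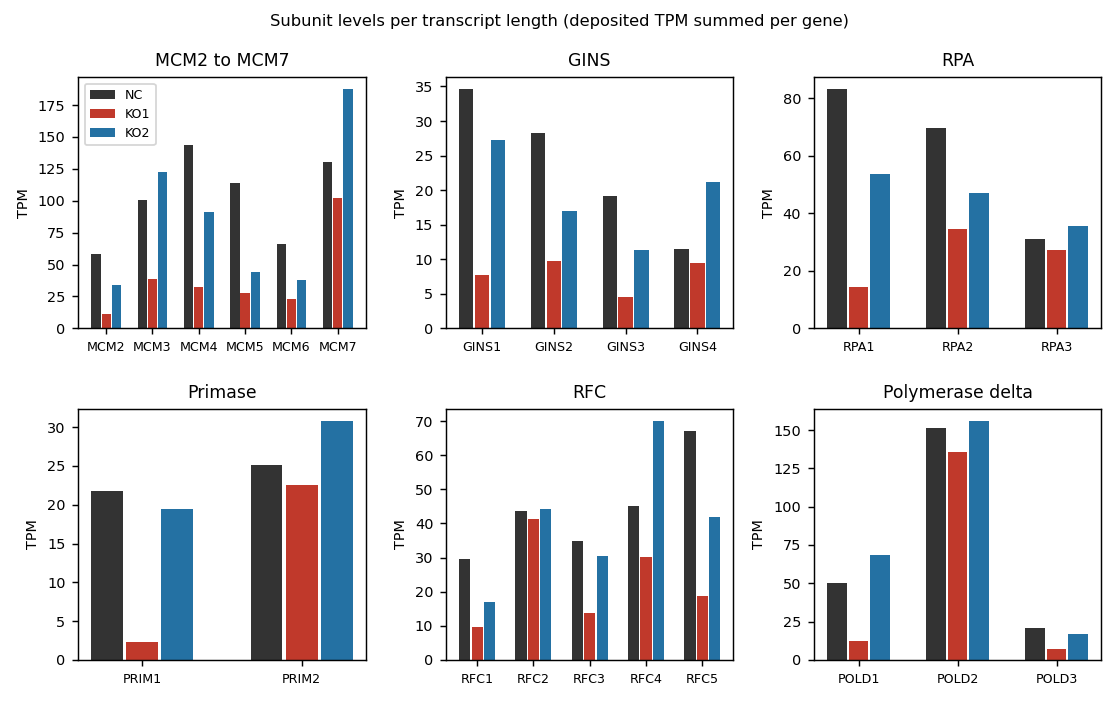
TPM per gene (deposited values summed over transcripts, linear axes from 0) for the subunits of 6 complexes, with bars for NC (black), KO1 (red) and KO2 (blue) and no replicate error. In KO1 the bars of MCM7, PRIM2 and POLD2 stand far above those of their partners, and the highest subunit is 9.22 times the lowest in the MCM ring and 9.63 times in primase.

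Among the clamp and its loaders, 5 of 7 genes were lower in KO1. PCNA, the sliding clamp (ENSG00000132646, hg38 chr20:5114953-5126626), was at 258 CPM in NC, 37.5 CPM in KO1 and 223 CPM in KO2. The KO1 level was 6.88-fold lower than NC (6.41 to 7.39), whereas KO2 was within 1.16-fold of NC (1.12 to 1.196). RFC1, the large subunit of the loader, was at 76.1, 33.0 and 42.6 CPM, RFC3 at 52.4, 25.4 and 42.0 CPM and RFC5 at 71.6, 29.1 and 41.6 CPM. RFC2 and RFC4 did not pass: RFC2 was at 35.1, 46.6 and 37.2 CPM, the highest KO1 to NC fold of any member (1.33-fold, 1.22 to 1.45), and RFC4 at 34.2, 28.997 and 47.7 CPM. DSCC1, part of the alternative loader that serves sister chromatid cohesion, was at 15.8, 4.78 and 14.6 CPM.

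RPA, the heterotrimer that coats single-stranded DNA, had 1 of its 3 subunit genes lower in KO1. RPA1, the large subunit (ENSG00000132383, hg38 chr17:1829702-1900082), was at 214 CPM in NC, 42.7 CPM in KO1 and 113 CPM in KO2. It was 5.002-fold lower in KO1 (4.68 to 5.36) and 1.88-fold lower in KO2 (1.80 to 1.97). RPA2 was at 75.1, 48.9 and 48.6 CPM, and RPA3 at 34.9, 42.2 and 38.3 CPM. Per length, RPA1 had the highest TPM of the trio in NC (83.1) and the lowest in KO1 (14.4, beside 34.7 for RPA2 and 27.2 for RPA3).

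Both genes that finish Okazaki fragments were lower in KO1. FEN1, the flap endonuclease, was at 161 CPM in NC, 42.2 CPM in KO1 and 100 CPM in KO2. LIG1, the ligase that seals the nicks, was at 77.6, 13.8 and 82.6 CPM, 5.61-fold lower in KO1 than in NC (4.99 to 6.33) and equal to NC in KO2 to within 1.06-fold (1.003 to 1.13).

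Of 4 genes that supply deoxynucleotides, 3 were lower in KO1. TYMS, thymidylate synthase, was at 136 CPM in NC, 38.3 CPM in KO1 and 181 CPM in KO2, highest in KO2, whereas E2F1 was highest in NC. Summed over transcripts, the ribonucleotide reductase subunits had like ratios between columns: RRM1 was at 141, 51.4 and 158 CPM and RRM2 at 104, 34.1 and 99.8 CPM. Their ratio per length was 1.25 in NC, 1.12 in KO1 and 1.54 in KO2. On protein-coding transcripts alone they parted: between KO2 and KO1 the log2 fold was -0.13 for RRM1 and 1.59 for RRM2, and in KO1 against NC it was -0.86 and -1.66. TK1, the salvage enzyme thymidine kinase 1, was at 295, 211 and 223 CPM, 1.40-fold lower in KO1 (1.35 to 1.45), and did not pass.

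All 3 genes of histone supply and chromatin assembly were lower in KO1. SLBP, which binds the stem-loop of replication-dependent histone mRNAs, was at 86.2 CPM in NC, 34.9 CPM in KO1 and 67.7 CPM in KO2. The chromatin assembly factor subunits CHAF1A and CHAF1B were at 86.8, 34.0 and 68.3 CPM and at 49.9, 11.0 and 33.0 CPM. CHAF1B was 4.54-fold lower in KO1 (3.97 to 5.21) and CHAF1A 2.55-fold (2.35 to 2.77), with KO2 between NC and KO1 for each of the 3 genes.

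**Figure D3:**
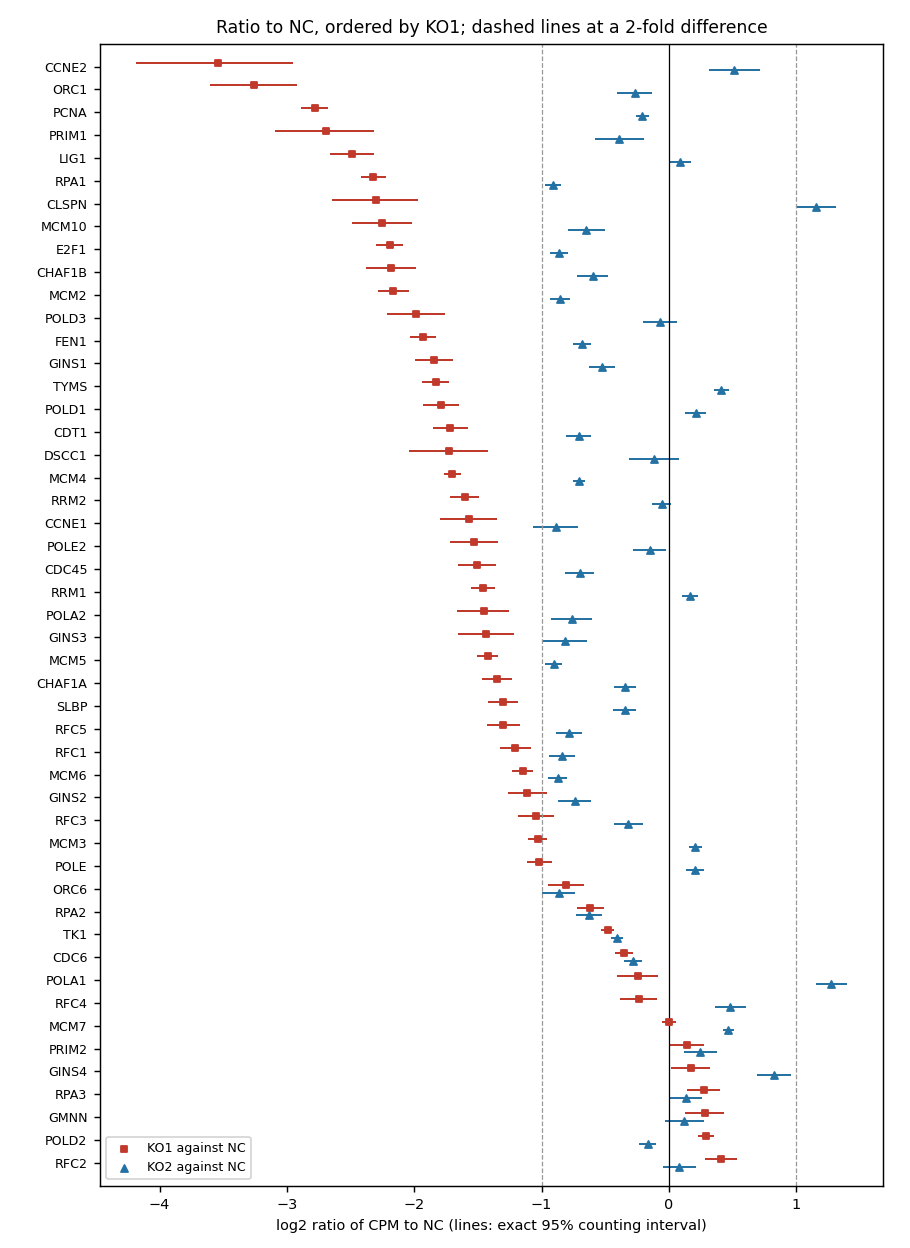
Log2 ratio of CPM to NC for each gene in KO1 (red squares) and KO2 (blue triangles), ordered by KO1, with lines for the exact 95% counting interval and dashed lines at 2-fold. The KO1 points run from 11.6-fold lower (CCNE2) to 1.33-fold higher (RFC2), and in KO2 only CLSPN and POLA1 lie past a dashed line.

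In KO2 most members stood lower than in NC, by less than 2-fold. By the counting interval alone, 30 of the 49 were lower and 14 higher in KO2, against 39.4% and 38.8% of all genes. Of the 36 genes that were lower in KO1, 28 had their KO2 value between KO1 and NC. The other 8 were at or above NC in KO2: CCNE2, CLSPN, LIG1, TYMS, POLD1, MCM3, POLE and RRM1. These 36 were picked for a low value in KO1, and the matching share among all genes lower in KO1 was not computed. The split into 28 and 8 therefore describes these genes only. By the 2-fold rule KO2 was higher than KO1 for 24 of the 36, beside 1376 of the 2532 genes lower in KO1 among all genes. Being lower in KO1 than in both other columns thus held for 24 of the 49 members and for 9.47% of all genes. With the line set at 1.5-fold instead of 2-fold, 19 members were lower in KO2 than in NC and 3 were higher, against 21% and 22.1% of all genes. Those 19 include E2F1, CCNE1, CDT1, RPA1 and 4 of the 6 MCM ring subunits (MCM2, MCM4, MCM5 and MCM6), and the 3 higher are CLSPN, POLA1 and GINS4. No member was lower than NC by the 2-fold rule in both knockout columns, a state that 5.65% of all genes were in. By TPM MCM5 was lower than NC in both, at -2.00 (KO1) and -1.36 (KO2) on the log2 scale, and on protein-coding transcripts ORC6 and MCM5 were.

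A further 50 replication and S phase genes, outside the 49, are set beside them. Both lists were chosen with earlier results of these data known, so a contrast between them may reflect that choice. Of these, 18 (36%) were lower and 2 (4%) higher in KO1 than in NC, against 17.4% and 15.4% of all genes. In KO2 0 were lower and 2 (4%) higher than in NC, against 9.98% and 11% of all genes. The median log2 fold of the 50 was -0.52 in KO1 and 0.05 in KO2. E2F2, another activating E2F, was at 15.7 CPM in NC, 0.739 CPM in KO1 and 8.39 CPM in KO2, 21.3-fold lower in KO1 (13.1 to 36.8). Its KO1 value rests on 17 counts. SAMHD1, which degrades deoxynucleotides, was at 39.9, 6.91 and 41.6 CPM, and the nuclease and helicase DNA2 at 24.3, 6.13 and 28.5 CPM. At the other end CDK2, the kinase of cyclin E, was at 50.8, 25.3 and 52.6 CPM, barely past the line in KO1 (2.01-fold, 1.82 to 2.22). The 2 genes higher in KO1 were ORC5, at 22.7, 50.5 and 17.8 CPM, and RNASEH2B, at 18.7, 40.2 and 25.9 CPM. Those higher in KO2 were FBXO5, encoding the anaphase-promoting complex inhibitor EMI1, at 28.3, 27.1 and 57.1 CPM, and the histone chaperone NASP, at 73.1, 124 and 157 CPM.

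Genes of G2 and mitosis act after replication is complete. Of 30 such genes, 5 (16.7%) were lower and 0 higher in KO1 than in NC, against 17.4% and 15.4% of all genes, and the median log2 fold was -0.01, the same as that of all genes. MKI67, the proliferation antigen Ki-67, was at 291 CPM in NC, 82.5 CPM in KO1 and 267 CPM in KO2, and AURKA, a mitotic kinase, at 254, 85.4 and 200 CPM. BIRC5, KIF20A and BUB1B were the other 3, between 2.16-fold and 2.50-fold lower. In KO2, 3 of the 30 were higher than in NC and 0 lower, against 11% and 9.98% of all genes. They were ANLN, a scaffold of the cytokinetic ring, at 210, 234 and 502 CPM, ECT2, at 85.2, 98.2 and 190 CPM, and CENPE, at 36.2, 47.4 and 74.5 CPM.

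**Figure D4:**
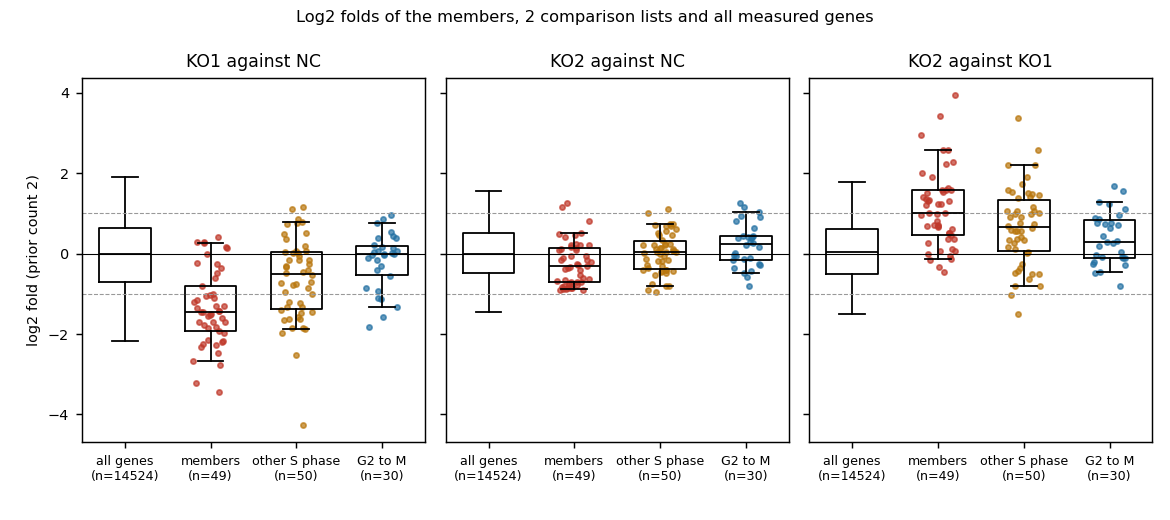
Log2 folds (prior count 2) of the 49 members (red), the 50 other replication and S phase genes (orange) and the 30 G2 to M genes (blue) beside a box of all 14524 genes, for the 3 pairs of columns, with points for genes, boxes for quartiles, whiskers from the 5th to the 95th percentile and dashed lines at 2-fold. In KO1 against NC the members' median is -1.45, the other S phase genes' -0.52 and the G2 to M genes' -0.01.

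The inhibitors of G1 cyclin kinases did not share a direction. CDKN1A, encoding p21, was at 134 CPM in NC, 272 CPM in KO1 and 195 CPM in KO2, 2.03-fold higher in KO1 (1.95 to 2.12). CDKN1C, encoding p57, was at 4.57, 11.1 and 2.96 CPM, and CDKN1B, encoding p27, at 35.4, 54.1 and 54.8 CPM. CDKN2C, encoding p18, went the other way at 60.4, 22.6 and 89.4 CPM, and CDKN2D was at 41.5, 23.2 and 33.5 CPM. CDKN2A and CDKN2B had 0 counts in all 3 columns, and their homozygous loss is a known feature of MDA-MB-231.

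The position of the members in the genome was set beside their folds, because the median log2 fold of all genes differed between chromosomes in both knockout columns. Levels along a chromosome were not examined, and whether position bears on the members' folds was not tested. All 4 members on chromosome 7 (MCM7, POLD2, RFC2 and RPA3) were among the 13 that were not lower in KO1, and the median log2 fold of all 723 measured genes there was 0.38. All 3 on chromosome 20 (GINS1, PCNA and E2F1) were lower in KO1, where the median of 381 genes was -0.42. All 4 on chromosome 11 and all 4 on chromosome 19 were lower as well, beside medians of -0.18 and 0.00. POLA1 is on the X chromosome, whose 477 genes had a median of 0.50 in KO2. With each gene's fold taken relative to the median of its chromosome, 34 members were lower in KO1, with a median of -1.30, beside 17.0% of all genes. POLE and RFC3 were the 2 that dropped out, and POLA1 no longer passed in KO2 (log2 0.77), while GINS4, at 1.03, did.

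Which transcript a gene's counts were given to also differed between columns. Of 48 members with at least 2 annotated transcripts and a mean of at least 10 CPM, 24 (50%) had a transcript whose share of the gene's counts moved by 20 percentage points or more between columns, beside 48.3% of 9190 genes. In this the members were like genes in general, and the shifts below describe single genes. The leading transcript was the same in all 3 columns for 30 members, a count that was not computed for all genes. MCM3 had a different one in each: MCM3-207 took 95.3% in NC, MCM3-201 97.4% in KO1 and MCM3-205 91.5% in KO2. These 3 protein-coding transcripts differ little in length, at 3208, 3083 and 3169 bases. For TK1, TK1-201 took 90.6% in NC, 8.37% in KO1 and 37.5% in KO2, and TK1-203 took 8.57%, 91.1% and 61.6%, although the total of the gene varied by at most 1.40-fold. For GINS4, 1.77-fold higher in KO2 than in NC and short of the 2-fold line, GINS4-209 took 0.137% in NC, 0.148% in KO1 and 91.1% in KO2. POLA1-201 had 0 counts in NC and KO1 and took 66.1% of POLA1 in KO2, where the 587 counts of POLA1-202 compare with 734 in NC and 523 in KO1. So the excess of POLA1 in KO2 was assigned to POLA1-201. The 0 counts allow POLA1-201 a share of up to 0.397% in NC and 0.574% in KO1.

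For some members the shift was between transcripts that encode the protein and transcripts that do not. The protein-coding share of ORC6 was 76.6% in NC, 6.18% in KO1 and 8.66% in KO2, since the retained-intron transcript ORC6-205 took 9.67%, 68.9% and 53.5%. That of PRIM1, which had only 64 counts in KO1, was 55.4%, 4.69% and 82.1%. The nonsense-mediated decay transcript PRIM1-208 was at 40.7%, 95.3% and 10.6%. The protein-coding share of POLE was 52.5% in NC, 0 of 1203 counts in KO1, which allows up to 0.249%, and 90.7% in KO2. RRM1 went the other way, at 65.0%, 98.1% and 29.1%, because the nonsense-mediated decay transcript RRM1-213 took 33.9% in NC, 0 of 1182 counts in KO1, which allows up to 0.254%, and 66.2% in KO2. Counting protein-coding transcripts alone left 36 members lower in KO1, with a median log2 fold of -1.58. Among all genes 21.9% were lower by that count, with a median of -0.11. Of the members, ORC6 newly passed at -4.38 and RRM1 no longer passed at -0.86. In KO2 ORC6 (-3.96) and MCM5 (-1.23) were then lower than NC. Transcripts of 1 gene share most of their sequence, so these shares depend on how the authors' tool divided fragments among them.

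**Figure D5:**
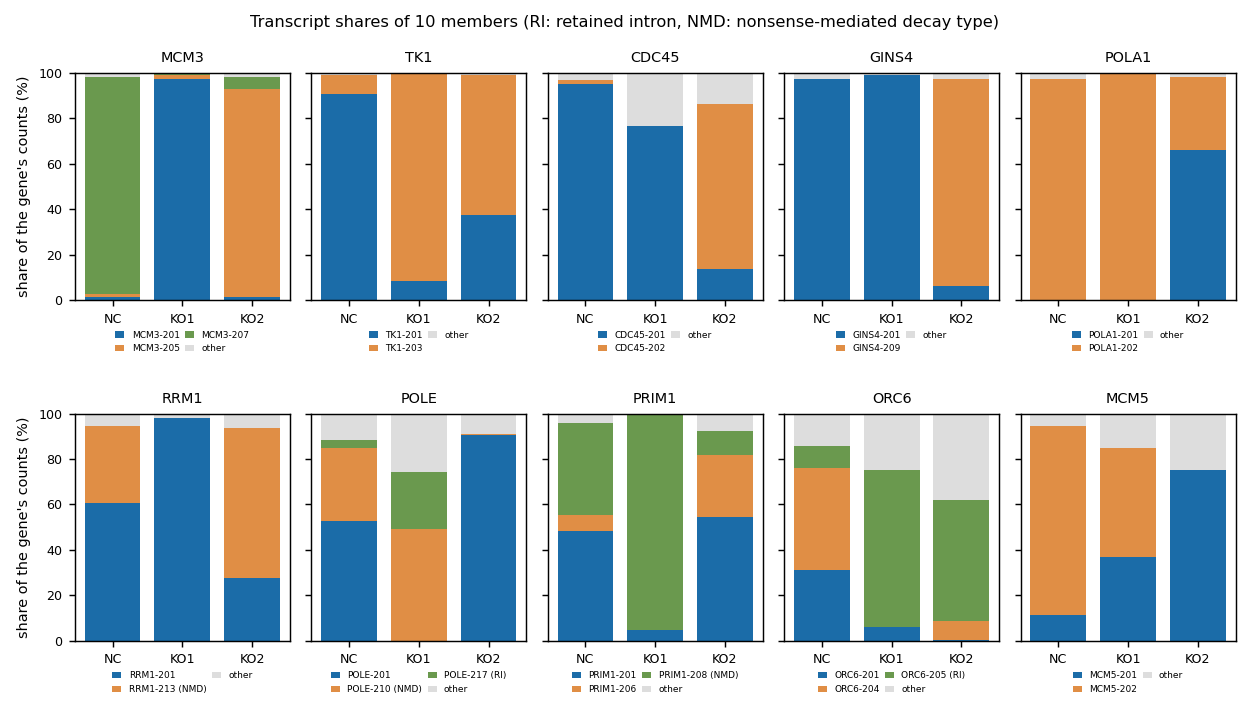
Share of each gene's counts (%) given to its main transcripts in NC, KO1 and KO2 for 10 members, with the rest in grey, retained-intron transcripts marked RI and nonsense-mediated decay transcripts marked NMD. MCM3 changes its leading transcript in every column, and POLA1-201, at 66.1% in KO2, has no counts in NC or KO1.

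Of genes outside the list, those whose pair of log2 folds lay nearest to the members' median pair were TSEN34, CCDC88C, RAD9A, PRR11, AP3M1, NR2F6, ABHD2, KIAA1217, MMADHC and PRICKLE2. The measure was the Euclidean distance between the pair for KO1 and KO2 against NC and the pair -1.45 and -0.32, over 7385 protein-coding genes with a mean of at least 20 CPM, and the 10 distances ran from 0.0247 to 0.0733. TSEN34, the nearest, was at 129 CPM in NC, 46.6 CPM in KO1 and 104 CPM in KO2.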

How the data were processed

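RNA was measured in 6 samples of MDA-MB-231 cells, 2 per group, with a stranded total RNA kit. The authors deposited 199167 transcripts with estimated counts per transcript, as their size beside TPM and length shows, and with TPM (scaled per transcript length), per the file headers, in 1 column per group. The counts are whole numbers, and for 89.6% to 90.8% of small transcripts they lay 0 to 1 above the count that TPM and length imply (tolerance 0.05), as values rounded up would. Per the submitters' processing notes, CASAVA, Bowtie2, featureCounts and hg38 were used, and the tool behind the transcript estimates and its strand setting are not given in the sources used here. The columns were matched to groups by name, and 3 columns of FPKM were not used.

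Counts were summed per gene ID and scaled by TMM (edgeR 4.0.16, R 4.3.3). Symbols are from a current list of gene names, which held 57392 of the gene IDs, and otherwise from GENCODE release 29. Transcript types are from GENCODE release 29, in which 196287 of the transcripts have the deposited position. Single columns were compared by the size rule given above, without a p-value. The fit over 3 groups needs replicate columns and could not be run, so KO1 and KO2 were joined against NC in edgeR's quasi-likelihood test (robust, two-sided, filterByExpr, Benjamini-Hochberg over 18289 genes), with DESeq2 1.42.0 as an alternative. Those p-values rest on the spread between the 2 knockout columns, not between cultures. Both procedures were run on simulated data. For the size rule the simulated columns held counting error only, and for edgeR the changed genes moved alike in both knockout columns. Many genes here did not, so those runs do not show how either procedure performs on these columns. The alternatives were other scalings, filters, prior counts and thresholds, TPM in place of counts, and 3 added after the data were seen: protein-coding transcripts only, folds relative to the chromosome median, and edgeR without its robust option.

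The 49 members and the 4 lists beside them (member roles aside: 50 other replication genes, 30 G2 to M genes, 7 inhibitors and the cell type markers) were chosen with earlier results of these data known. Of the leukocyte markers, 1 is not reported here. All members and all 7 inhibitors may be named. Of the 50 and the 30, the 3 highest and 3 lowest log2 folds among those past the rule in KO1 are named, plus any past it in KO2. Of transcripts, those at 20% or more of a member in some column and moving by 20 percentage points are named, with MCM7-209 and PCNA-201 added after their values were seen. Promoter sequences are RefSeq's (GRCh38.p14).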

Additional observations from a re-analysis of the deposited data

Results flagged for a closer look

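CLSPN, encoding claspin, lay on opposite sides of NC in the knockout columns: 18.4 CPM in NC, 3.74 CPM in KO1 and 41.0 CPM in KO2. Its log2 fold of KO2 against KO1 was 3.43, or 11.0-fold (8.80 to 13.8, counting error only). With 1 column per group this difference was not tested. The leading transcript differed as well, CLSPN-201 taking 67.4% of only 86 counts in KO1 and CLSPN-202 77.1% in NC and 76.1% in KO2.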

How the results depend on the processing

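Over all settings run, 34 to 38 members were lower in KO1 than in NC, 0 were higher, and 25 to 34 were higher in KO2 than in KO1. The members' median log2 fold in KO1 against NC was -1.68 by total count, -1.66 by TPM, -1.58 on protein-coding transcripts and -1.30 relative to the chromosome. For all genes it was -0.24 by total count and -0.33 by TPM, so part of the first 2 shifts is shared by all genes, and the count of all genes past the rule went from 2234 higher and 2532 lower to 1647 and 3292 by total count. In KO2 against KO1 the members' median was 1.27 by total count and 1.33 by TPM, beside 0.30 and 0.39 for all genes. In KO2 against NC the members' median was -0.19 by TPM. The count past the rule was 22 at 1.5-fold, now mostly lower, beside 21.0% lower and 22.1% higher among all genes. On protein-coding transcripts it was 4, with 2 lower and 2 higher, beside 11.8% lower and 11.8% higher among all genes. MCM5 was lower in KO2 than in NC by TPM (-1.36), POLE did not pass in KO1 by TPM (-0.64), and CLSPN did not pass in KO2 by TPM (0.99). RRM1 reversed in KO2 against KO1 on protein-coding transcripts (-0.13). edgeR and DESeq2 called 0 members in every setting, with 0 to 3 at an unadjusted p under 0.05 and a lowest adjusted p between 0.380 and 0.659. Over all pairs of a single member's fold and a setting, 54 newly passed the rule, 7 no longer passed and 1 that had passed reversed. Another 140 had not passed and moved by more than counting error without a change of call. Some of these changed sign, as RFC2 in KO1 against NC from 0.41 to -0.07 by TPM. The other 1268 were past the rule and stayed so, or were not and stayed within counting error. They include every pair from the settings that changed only the low-count filter. The lowest mean of a member was 10.6 CPM (CCNE2), so those settings could alter no member. A fold that kept its call could still move far, as POLE in KO1 against NC from -1.02 to -9.52 on protein-coding transcripts. With 0 protein-coding counts of POLE in KO1, the size of the second value depends on the prior count. By share of TPM 27 members had a moved transcript, and the matching share of all genes was not computed. No paired analysis was possible because the columns carry no replicate number, and leaving out a replicate was not run for the same reason. Of the 49 members, depth limits CCNE2 most by summed counts, with 25 in KO1, and values on single transcripts can rest on fewer.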
